A study of Homo sapiens with 4 samples.

Results

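The mitochondrial respiratory chain was followed in SKOV3 cells, a line established from a human ovarian cancer, through the nuclear genes for the subunits of complexes I to IV. Members were chosen by gene symbol alone: NDUFA, NDUFB, NDUFC, NDUFS and NDUFV with a number, SDHA to SDHD, every UQCR symbol, COX5 to COX8 subunits, CYC1 and CYCS. This gave 66 of the 19475 symbols in the table, listed as 120 transcripts. Of these, 36 belong to complex I, 4 to complex II, 10 to complex III and 15 to complex IV, and CYCS encodes the mobile carrier cytochrome c. NDUFA4, named after complex I, was counted with complex IV, where it is now placed. COX4I1, COX4I2 and NDUFA4L2 do not match the symbol pattern and were added as companions for the comparison of isoforms.

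The samples were 4 RNA-seq libraries. In 2 of them (replicates 1 and 2) SKOV3 cells came from tissue culture plate (TCP) at day 0, and in the other 2 from tumor spheroids grown for 8 days on polymer X, a polymer thin film. No genotype differed between the groups, and no agent is named for either. The labels give a medium with serum replacement, while the methods keep SKOV3 in fetal bovine serum and use serum replacement for spheroids, so substrate, culture time and possibly serum changed together and cannot be told apart. The labels do not say whether libraries of a group came from separate cultures, so p-values measure the spread between these libraries, which may be technical. All values come from 1 cell line.

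Complex I takes electrons from NADH and complex II takes them from succinate, and both pass them to ubiquinone. Complex III hands them on to cytochrome c, and complex IV, cytochrome c oxidase, gives them to oxygen. Complexes I, III and IV pump protons, and the ATP synthase uses the gradient. Most subunits are encoded in the nucleus, and the transcription factors NRF1 and GABPA (an ETS factor) and the receptor ERR alpha are known regulators of these genes. Some subunits of complex IV exist as isoforms that differ between tissues. COX4I2 and NDUFA4L2 are known as hypoxia-inducible counterparts of COX4I1 and NDUFA4.

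Promoters are shown as background, because these factors are known to bind near chain genes, and a link to the change was not tested. RefSeq promoter sequences (GRCh38.p14, from 250 bases before to 50 after the start) were matched for 54 of the 66 members and searched on both strands. The NRF1 letters, 10 bases that are their own reverse complement and stand in capitals for SDHD and NDUFB4, were found in 3 of them (5.56%), against 1.36% of 27305 promoters and 2.39% of those of tested genes. The ETS letters CCGGAAGT were found in 8 (14.8%), against 4.44% of all and 9.32% of those of tested genes. The ERR letters TCAAGGTCA were found in SDHD alone (1.85%), against 0.359% of all and 0.178% of those of tested genes. The HIF letters ACGTG or GCGTG were found in 32 (59.3%), against 48.4% and 63.7%. The stretches below lie before the start, 5′ to 3′ on the strand of the gene, with the letters of the motif named for each, or their reverse complement, in capitals. SDHD also holds the ETS letters, which are left in lower case.
SDHD, NRF1, chr11:112086723-112086812, plus strand: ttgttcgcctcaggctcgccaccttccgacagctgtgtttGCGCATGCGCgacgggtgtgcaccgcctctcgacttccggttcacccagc
NDUFB4, NRF1, chr3:120596137-120596226, plus strand: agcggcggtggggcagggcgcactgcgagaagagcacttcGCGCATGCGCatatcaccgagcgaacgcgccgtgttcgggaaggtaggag
NDUFS1, ETS, chr2:206159555-206159642, minus strand: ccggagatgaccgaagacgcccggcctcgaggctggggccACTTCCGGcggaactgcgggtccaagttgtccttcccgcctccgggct
UQCRQ, ETS, chr5:132866548-132866635, plus strand: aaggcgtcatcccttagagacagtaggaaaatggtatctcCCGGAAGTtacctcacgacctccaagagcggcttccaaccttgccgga
COX8A, ETS, chr11:63974561-63974619, plus strand: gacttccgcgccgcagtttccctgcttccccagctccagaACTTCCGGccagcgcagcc
COX5B, ETS, chr2:97645985-97646061, plus strand: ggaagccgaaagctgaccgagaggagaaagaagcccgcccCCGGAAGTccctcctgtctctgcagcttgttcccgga
These letters were found in members that fell and in members that did not. SDHD, NDUFS1, UQCRQ and COX8A were lower on polymer X, NDUFB4 was higher, and COX5B did not pass the test. The other members with NRF1 or ETS letters are not shown. Of these, NDUFA8 (NRF1) was lower, and NDUFA13 and UQCR11 (both ETS) did not pass the test. UQCRH (ETS) was higher but entered the test only through polymer X. A match describes the letters and is not a measured binding site.

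The values were FPKM, in which the tag count of a transcript is divided by its length and by the library total. Steps between the low values put the depth at 38403000 and 44917000 tags on TCP and at 40034000 and 40681000 on polymer X. A gene entered the limma test, on log2(FPKM + 1), when 2 or more libraries held 1 FPKM or more, and 11964 genes did. On this scale the change of a gene with low FPKM is understated. The epithelial keratins KRT8 and KRT18, the ovarian lineage factor PAX8 and ERBB2 were expressed in all libraries, while EPCAM, KRT19 and MUC16 did not exceed 1.39 FPKM in any library. The 4 leukocyte markers summed to 0.16 and 0.096 FPKM on TCP and to 0.823 and 0.962 on polymer X, with CD3E at 0 throughout, and the 3 endothelial markers to 0.009 and 0.019 and to 0.617 and 0.489. The 3 fibroblast markers summed to 8.34 to 8.56 and to 10.3 to 11.3, with opposite moves, DCN rising from 0.025 and 0 to 7.26 and 6.20 and COL1A1 falling from 8.21 and 8.48 to 3.81 and 3.77. Their part in the results was not tested.

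The replicates differed in a way that touches the short transcripts of the chain. TCP replicate 1 lay above TCP replicate 2 for 52 of the 63 tested members, against 5835 of the 11964 tested genes. The median gap was 0.25 on the log2 scale for the 23 members under 700 bases and 0.09 for the 40 longer ones. Among all tested genes under 700 bases, 231 of 275 were higher in TCP replicate 1. On polymer X, replicate 1 was the higher for 50 of 63 members and for 7636 of 11964 tested genes, with median gaps of 0.10 and 0.04. Results are therefore also given without TCP replicate 1 and with the trend of the change on transcript length removed.

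**Figure D1:**
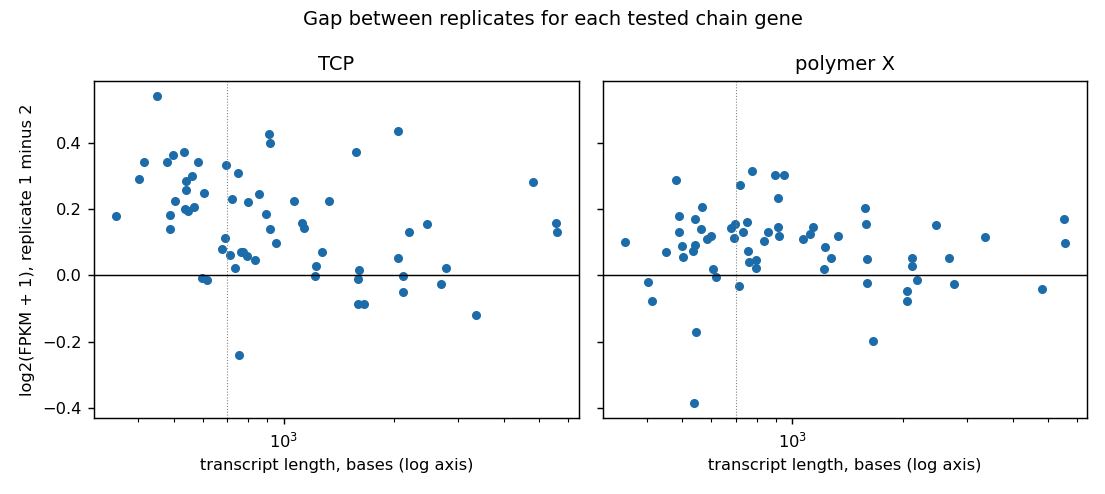
Difference in log2(FPKM + 1) between replicate 1 and replicate 2 (vertical) against transcript length in bases (horizontal, log axis) for the 63 tested respiratory chain genes, on TCP (left) and polymer X (right). The dotted line marks 700 bases, and on TCP the points left of it have a median gap of 0.25 against 0.09 to its right.

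Most chain genes were lower in the spheroids. Of the 63 members that passed the filter, 48 (76.2%) were lower in the spheroids with an adjusted p below 0.05, 4 were higher and 11 did not pass the test. Of the 4 higher members, UQCRH and COX6B2 passed the filter only through polymer X and so had to differ, which leaves NDUFA5 and NDUFB4. Among all tested genes 81.0% passed the test, 43.6% as lower and 37.4% as higher. The fall was moderate: the median log2 fold change of the members was -0.39 (replicate SD 0.09), against -0.06 for all tested genes. Under 700 bases, the 23 members had a median of -0.28 (14 lower), against -0.36 for the 275 tested genes (167 lower). Short members thus did not fall more than other short genes. At 700 bases or more, the 40 members had -0.49 (34 lower), against -0.05 for 11689 tested genes (5045 lower). Falls of at least 2-fold were seen for 5 members (7.9%), against 9.45% of tested genes, and a rise of that size for UQCRH, against 10.7%. Both polymer X libraries lay below both TCP libraries for 49 members and above them for 4, where the shares of all tested genes were 48.4% and 41.9%. FPKM is relative to the library, so fewer cells expressing a gene and less of its RNA per cell cannot be told apart.

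The count changed with the processing. With the length trend removed, 34 members were lower and 13 higher, against 4972 and 4871 of the 11964 tested genes. The median change was then -0.21 for the members and -0.006 for all tested genes. Under quantile normalization these medians were -0.15 and -0.05. There, 31 members were lower and 13 higher, against 5063 and 4341 of all tested genes. Without TCP replicate 1, the median change was -0.34 for the members and -0.05 for all tested genes. As first processed, 48 members and 5212 of all tested genes were lower. Under each of the 14 alternatives tried, 30 members (47.6%) and 4176 of all tested genes (34.9%) were lower at an adjusted p under 0.05. These 30 were 17 of 36 in complex I, 4 of 4 in complex II, 5 of 9 in complex III, cytochrome c, and 3 of 13 in complex IV. The other 18 lower members lost the call in at least 1 alternative, and 8 of them, COX6A1, COX6B1, NDUFA1, NDUFA3, NDUFA8, NDUFB1, NDUFC2 and NDUFV2, changed sign in at least 1.

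**Figure D2:**
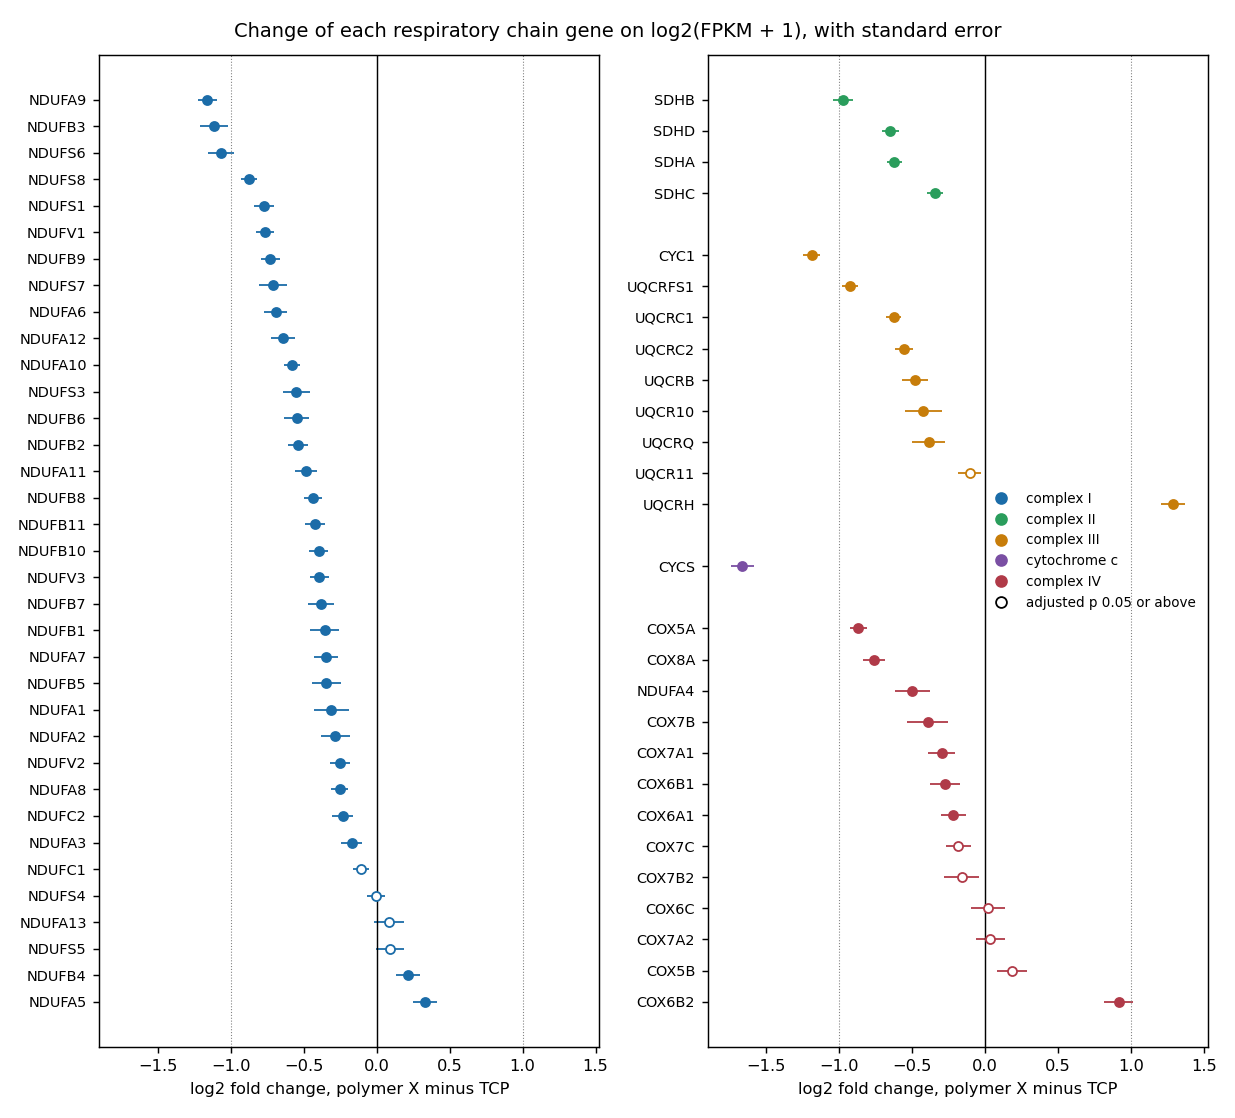
Log2 fold change (polymer X minus TCP, on log2(FPKM + 1)) with its standard error for 62 of the 63 tested members, by complex; filled points have an adjusted p under 0.05 and dotted lines mark a 2-fold change. CYCS lies farthest to the left at -1.66, all of complex II is left of 0, and 5 of the 13 points of complex IV are open.

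Complex I had 29 of its 36 tested genes lower (80.6%, against 43.6% of all tested genes), 2 higher and 5 without a call. The median log2 fold change was -0.40. The largest fall was that of NDUFA9 (NM_005002, hg19 chromosome 12, 4758264 to 4796720), an accessory subunit at the junction of the matrix and membrane arms. Its FPKM was 16.3 and 17.4 on TCP and 7.09 and 6.82 on polymer X. The groups did not overlap, and the log2 fold change was -1.16 (standard error 0.06, adjusted p = 2.1e-07 from limma). NDUFB3 (NM_002491, chromosome 2, 201936462 to 201950473), an accessory subunit of the membrane arm, had 53.4 and 43.0 FPKM on TCP and 22.9 and 20.4 on polymer X, which differ by -1.12 on the log2 scale (standard error 0.10, adjusted p = 4.6e-06). NDUFS6 (NM_004553, chromosome 5, 1801496 to 1816167), an accessory subunit near the NADH-oxidizing end that binds zinc, had 96.9 and 80.9 FPKM on TCP and 44.3 and 39.2 on polymer X. Its log2 fold change was -1.07 (standard error 0.09, adjusted p = 3.4e-06). For these 3 genes the polymer X mean was between 41.4% and 47.0% of the TCP mean. Without TCP replicate 1, NDUFB3 and NDUFS6 changed by -0.96 and -0.94.

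Lower values were also found for 6 core subunits, several of which carry the flavin or iron-sulfur clusters. NDUFS8, which holds iron-sulfur clusters near the ubiquinone site, had 67.5 and 64.7 FPKM on TCP and 36.2 and 35.1 in the spheroids (log2 fold change -0.87). NDUFS1, the largest subunit, went from 23.2 and 25.3 to 14.4 and 13.2, and NDUFV1, which binds NADH and the flavin, from 47.1 and 47.5 to 28.98 and 25.9. Both had a log2 fold change of -0.77. NDUFS7 and NDUFS3 followed with -0.71 and -0.55, and NDUFV2, also a core subunit, with -0.26, which passed the test in 10 of the 14 alternatives and reached 0.04 at the highest.

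The N module, where NADH is oxidized, had 7 of 8 genes lower (87.5%, against 43.6% of all tested genes). NDUFS4 was the exception, with 29.7 and 29.9 FPKM on TCP and 31.0 and 28.4 on polymer X.

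In the membrane arm, 11 of the 13 NDUFB and NDUFC genes were lower (84.6%, against 43.6% of all tested genes), with a median of -0.40. After NDUFB3 came NDUFB9 (log2 fold change -0.73), NDUFB6 (-0.55) and NDUFB2 (-0.54). NDUFC1 did not pass the test at -0.11, with FPKM of 33.6 and 32.1 against 30.1 and 30.7. NDUFB4 was higher, with 139 and 117 FPKM on TCP and 149 and 146 on polymer X (log2 fold change 0.21, standard error 0.08, adjusted p = 0.0337). Over the fits that left out 1 library the value lay between 0.09 and 0.34 and passed the test only without TCP replicate 1, and 12 pseudogenes in GENCODE 29 carry its name. The other gene of complex I that was higher was NDUFA5, a matrix arm subunit, from 2.65 and 2.33 FPKM to 3.55 and 3.25 (log2 fold change 0.33, adjusted p = 0.00435), and under quantile normalization it did not pass the test (0.12, adjusted p = 0.198). Its listed transcripts are 5458 to 5766 bases long and its FPKM was the lowest of complex I.

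Among the remaining NDUFA genes, NDUFA6, NDUFA12, NDUFA10 and NDUFA11 fell by 0.69, 0.64, 0.58 and 0.49 on the log2 scale. NDUFA7, NDUFA1, NDUFA2 and NDUFA8 had -0.35, -0.31, -0.29 and -0.25. They passed the test in 12, 6, 9 and 12 of the 14 alternatives, and NDUFA1 reached 0.05 and NDUFA8 0.08. NDUFA1, a short membrane subunit encoded on the X chromosome, passed the test (adjusted p = 0.0343) although TCP replicate 2, at 72.5 FPKM, lay below polymer X replicate 1, at 72.7. NDUFA3 ranged from -0.26 to 0.27 over the 14 alternatives, so its direction is not given. NDUFA13 and NDUFS5 did not pass the test: NDUFS5 had 255 and 207 FPKM on TCP and 257 and 233 on polymer X, the highest level of complex I in all libraries.

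All 4 genes of complex II, the succinate dehydrogenase that also serves the TCA cycle, were lower, where 43.6% of all tested genes were. Their median was -0.64 (replicate SD 0.02). They kept an adjusted p under 0.05 under each of the 14 alternatives. SDHB (NM_003000, chromosome 1, 17345225 to 17380665), the iron-sulfur subunit, had 53.6 and 48.4 FPKM on TCP and 26.8 and 24.1 on polymer X (log2 fold change -0.97, standard error 0.07, adjusted p = 1.4e-06). SDHD, a membrane anchor, had 31.4 and 29.9 against 19.5 and 18.8 (-0.65). SDHA, the flavoprotein that oxidizes succinate, had 34.7 and 34.2 against 21.8 and 22.2 (-0.62). SDHC, the other membrane anchor, changed least, with 21.0 and 21.4 against 16.9 and 16.2 (-0.34, adjusted p = 3.7e-04). In each of the 4 genes the groups were separate, and the largest SD within a group was 3.63 FPKM.

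Complex III had 7 of its 9 tested genes lower (77.8%, against 43.6% of all tested genes), 1 higher and 1 without a call. CYC1 (NM_001916, chromosome 8, 145149938 to 145152430), cytochrome c1, which passes electrons to cytochrome c, had 109.7 and 108 FPKM on TCP and 48.6 and 45.6 on polymer X. The log2 fold change was -1.19 (standard error 0.06, adjusted p = 8.5e-08), and the replicates differed by at most 2.06 FPKM (SD). UQCRFS1, the Rieske iron-sulfur protein, had 41.1 FPKM in both TCP libraries and 21.3 and 21.0 on polymer X (-0.93, adjusted p = 2.9e-07). UQCRC1, a core protein, had 84.9 and 83.8 FPKM against 53.8 and 54.7 (-0.63, standard error 0.05, adjusted p = 3.5e-06), and UQCRC2, the other core protein, had a log2 fold change of -0.56. The small subunits UQCRB, UQCR10 and UQCRQ fell by 0.48, 0.43 and 0.39 on the log2 scale, and UQCR11 did not pass the test, with 50.9 and 43.4 FPKM against 45.5 and 41.8. CYC1 and UQCRFS1, which carry redox centers, had the largest falls among the 7.

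UQCRH, the hinge protein that joins cytochrome c1 with cytochrome c, was listed at 0.169 and 0.18 FPKM on TCP and 1.86 and 1.87 on polymer X (log2 fold change 1.29, adjusted p = 5.4e-07). This is 4 and 5 tags against 46 and 47, and the other tested genes of the complex had 12.1 to 109.7 FPKM. It passed the filter only through polymer X and so had to differ. UQCRHL, a nearly identical intronless copy, had at most 4 tags in any library, and 4 pseudogenes carry the name UQCRH. Reads shared between such copies can be lost or split by the counting, so the level and the change of UQCRH are uncertain.

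CYCS (NM_018947, chromosome 7, 25158270 to 25164980), cytochrome c, which carries electrons from complex III to complex IV and takes part in apoptosis, had the largest fall of all members. Its FPKM was 18.8 and 16.7 on TCP and 5.27 and 4.57 on polymer X, 3.61-fold lower (log2 fold change -1.66, standard error 0.08, adjusted p = 1.0e-07). The value lay between -1.83 and -1.58 over the 14 alternatives. The listed transcript is 5533 bases long, and 40 pseudogenes in GENCODE 29 carry its name.

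**Figure D3:**
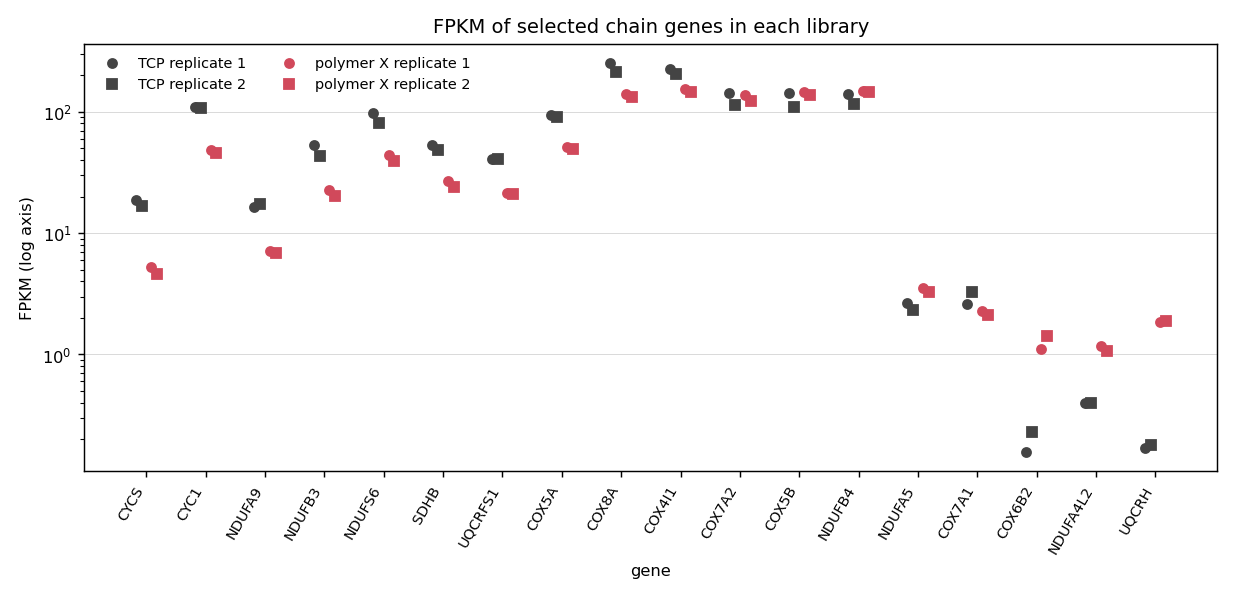
FPKM (log axis) of 16 members and of COX4I1 and NDUFA4L2 in the 2 TCP libraries (grey) and the 2 polymer X libraries (red), with circles for replicate 1 and squares for replicate 2. Polymer X is lower for CYCS to COX4I1 and for COX7A1, the groups overlap for COX7A2 and COX5B, and polymer X is higher for NDUFB4, NDUFA5, COX6B2, NDUFA4L2 and UQCRH.

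In complex IV, 7 of the 13 tested genes were lower (53.8%, against 43.6% of all tested genes), 1 was higher and 5 did not pass the test. The median was -0.22 (replicate SD 0.15). The sign of this median turned with the length trend removed (0.11) and under quantile normalization (0.06), so no direction is given for the complex as a whole. COX5A (NM_004255, chromosome 15, 75212617 to 75230495), a matrix-side subunit, had 94.8 and 90.1 FPKM on TCP and 50.9 and 49.4 on polymer X (log2 fold change -0.87, standard error 0.06, adjusted p = 5.8e-07). COX8A, a short membrane subunit, had 250.1 and 214 FPKM against 139 and 133 (-0.76, adjusted p = 1.3e-05). NDUFA4 had 15.1 and 10.9 against 8.66 and 8.97 (-0.50, adjusted p = 0.00363), with -0.28 without TCP replicate 1 and -0.72 without TCP replicate 2. These 3 members of complex IV were lower under each alternative.

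COX5B, the zinc-binding partner of COX5A, did not follow it. It had 141 and 109.7 FPKM on TCP and 146 and 137 in the spheroids (log2 fold change 0.18, standard error 0.10, adjusted p = 0.131). COX6C (87.1 and 65.8 against 80.7 and 72.9 FPKM) and COX7C (235 and 192 against 186 and 188) did not pass the test either. COX7B, COX6B1 and COX6A1 were lower by 0.39, 0.28 and 0.22 on the log2 scale (standard errors 0.14, 0.10 and 0.09), with adjusted p of 0.0257, 0.0284 and 0.042 from limma. COX6B1 had 119 and 94.1 FPKM against 90.8 and 84.1, and COX6A1 had 140 and 121 against 120.0 and 104. For COX6B1 and COX6A1 the sign turned with the length trend removed (0.04 and 0.11) and under quantile normalization (0.06 and 0.12). COX7B then had -0.01 and -0.06. Its TCP libraries, at 101 and 69.0 FPKM, were farther apart than the group means, and polymer X had 64.9 and 61.6.

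For COX4, the ubiquitous isoform carried all of the signal. COX4I1 (NM_001318797, chromosome 16, 85833304 to 85840609) had 224 and 205 FPKM on TCP and 155 and 146 in the spheroids (log2 fold change -0.51, standard error 0.07, adjusted p = 6.9e-05). The value was -0.14 under quantile normalization (adjusted p = 0.0382) and -0.22 with the length trend removed. COX4I2 was listed at 0 in all 4 libraries. A floor of 3 tags, which covers counting error only, would be an FPKM of 0.0987 to 0.115 for this transcript, so a switch to COX4I2 was not detectable at this depth, and no ratio of the isoforms was computed.

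For COX7, the ubiquitous isoform COX7A2 also dominated. It had 142 and 113 FPKM on TCP and 137 and 123 on polymer X (log2 fold change 0.04, standard error 0.10, adjusted p = 0.752). It was higher under quantile normalization (0.39, adjusted p = 0.00301), with the length trend removed (0.32, adjusted p = 0.0011) and without TCP replicate 1 (0.20, adjusted p = 0.0461). COX7A1, the heart and muscle isoform, had 2.62 and 3.27 against 2.28 and 2.11 (-0.30, adjusted p = 0.0156). Its call was lost with the length trend removed (-0.04, adjusted p = 0.768), without TCP replicate 2 (-0.18, adjusted p = 0.156), without polymer X replicate 2 (adjusted p = 0.0874) and with no filter (adjusted p = 0.0575). COX7A1 was thus at 1.84% and 2.90% of the COX7A2 level on TCP and at 1.67% and 1.72% on polymer X. The difference in the log2 ratio, with 1 added to each FPKM, was -0.34 (replicate SD 0.29, exact permutation test, two-sided p = 0.333, adjusted p = 0.444 over 4 isoform pairs), and 0.333 is the smallest p that 2 against 2 libraries can give. Leaving out TCP replicate 2 gave -0.05. COX7B2, known from testis, had 10.6 and 9.10 FPKM against 7.48 and 10.1 and did not pass the test.

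The other tissue isoforms were at or near the floor on TCP. COX6B2, the testis form of COX6B1, had 0.157 and 0.229 FPKM on TCP (10 and 17 tags) and 1.10 and 1.41 on polymer X (73 and 95 tags). Its log2 fold change was 0.92 (adjusted p = 1.8e-05 from limma). It passed the filter only through polymer X and so had to differ, and it stood at 1.21% and 1.68% of the COX6B1 level there. COX6A2, the muscle form of COX6A1, had at most 2 tags in any library, and COX8C was listed at 0 in all. COX6A2, COX8C and UQCRHL were the 3 members that did not pass the filter.

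NDUFA4L2, the paralog of NDUFA4, had 0.397 and 0.396 FPKM on TCP and 1.16 and 1.06 on polymer X, or 18 and 21 tags against 55 and 51. The log2 fold change was 0.60 (standard error 0.08, adjusted p = 1.3e-04), and under quantile normalization it was -0.03. It too passed only through polymer X, and its span overlaps that of SHMT2 on the opposite strand, which the counting does not separate. Its level went from 2.62% and 3.62% of NDUFA4 to 13.4% and 11.8%. The difference in the log2 ratio, with 1 added to each FPKM, was 1.10 (replicate SD 0.225). The exact permutation test gave a two-sided p of 0.333, the smallest it can give here, and an adjusted p of 0.444 over 4 isoform pairs. Of 8 tested genes from a list of hypoxia-related modulators of the chain, which holds NDUFA4L2, 6 were higher and 1 lower. Leaving out NDUFA4L2, which had to differ, 5 of 7 were higher. Among all tested genes 37.4% were higher and 43.6% lower, and a part of hypoxia was not tested. MXI1 (log2 fold change 1.70), the mitophagy receptors BNIP3L (0.98) and BNIP3 (0.66), and PDK1 (0.78), which holds back pyruvate dehydrogenase, rose. ISCU, the remaining higher gene, changed least of these, by 0.25. HIGD1A, which binds complex IV, fell (-1.20), and the protease LONP1 did not pass the test (-0.10, adjusted p = 0.102).

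By level per length, complex IV stood highest and complex II lowest in all libraries. Their median log2 fold changes, -0.22 and -0.64, were the smallest and the largest in size of complexes I to IV. No direction is given for complex IV, as stated above. On TCP the median FPKM of the tested members was 101 and 90.1 for complex IV, 50.9 and 43.4 for complex III, 47.995 and 42.4 for complex I and 33.1 and 32.0 for complex II. On polymer X it was 80.7 and 72.9, 33.2 and 33.5, 33.4 and 29.8, and 20.7 and 20.5. Complexes I and III were not apart by more than the gap between libraries. Members with a mean of at least 100 FPKM numbered 13 on TCP and 8 on polymer X. NDUFS5, COX8A and COX7C were at 231 ± 33.9, 232 ± 25.6 and 214 ± 30.5 FPKM on TCP (SD, n = 2) and did not differ beyond that spread. On polymer X, NDUFS5 was first at 245 ± 16.8, above COX7C at 187 ± 1.91.

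The genes around the chain were counted from lists written with general knowledge. For the ATP synthase, which uses the proton gradient, 17 of 19 tested genes were lower (89.5%) and 0 higher by limma. The median was -0.49, and of all tested genes 43.6% were lower and 37.4% higher. ATP5PO and ATP5F1D did not pass the test and stood at -0.09 and -0.08, so 0 genes of the list had a positive change at any p. ATP5F1B, the catalytic beta subunit, fell from 349 FPKM in both TCP libraries to 153 and 144 (-1.23), and ATP5MC1, of the membrane ring, from 76.9 and 70.1 to 32.9 and 28.9 (-1.23). Of 17 complex I assembly factors, 15 were lower (88.2%) and 1, NDUFAF7, was higher (0.34), with a median of -0.68. NDUFAF2, NDUFAF8 and NDUFAF4 fell by 1.25, 1.17 and 1.06 on the log2 scale. Of 10 assembly factors of complexes II and III, 5 were lower and 1 higher, where 43.6% of all tested genes were lower. BCS1L, which inserts the Rieske protein, fell by 1.11, and SDHAF4, a chaperone of SDHA, rose by 0.99.

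Assembly factors of complex IV went both ways, with 16 of 24 lower (66.7%) and 3 higher (12.5%), against 43.6% and 37.4% of all tested genes. The median was -0.35. COA7 fell by 1.66 on the log2 scale, followed by HIGD1A, named above, and by CMC2 (-1.03) and SCO1, a copper chaperone (-1.003). COA5, COA3 and COX20 rose by 0.48, 0.40 and 0.37, and SURF1 did not pass the test at 0.03. Among subunits outside the symbol pattern, NDUFAB1, the acyl carrier protein of complex I, fell by 0.43 and COX7A2L, which joins complexes III and IV, by 0.24.

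Of 17 tested regulators, 12 were lower (70.6%, against 43.6% of all tested genes). Only 1, POLG2, a subunit of the mitochondrial DNA polymerase, was higher (0.46), where 37.4% of all tested genes were. PPRC1, a coactivator of the PGC-1 family, had 6.97 and 7.44 FPKM on TCP and 2.07 and 2.63 on polymer X (log2 fold change -1.30). TFAM, a packaging and transcription factor of mitochondrial DNA, went from 15.02 and 14.7 to 7.37 and 6.88 (-0.97). TWNK, the mitochondrial DNA helicase, fell by 1.04, and NRF1 went from 7.31 and 7.11 to 4.19 and 3.79 (-0.72). GABPA (-0.12, adjusted p = 0.132) and ESRRA, which encodes ERR alpha (0.09, adjusted p = 0.287), did not pass the test, whereas GABPB1, the partner of GABPA, fell by 0.63. PPARGC1A (0.043 and 0.02 against 0.282 and 0.307 FPKM) and PPARGC1B (0.675 and 0.653 against 0.433 and 0.4) were too low to be tested. Genes of mitochondrial DNA were not analysed here.

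**Figure D4:**
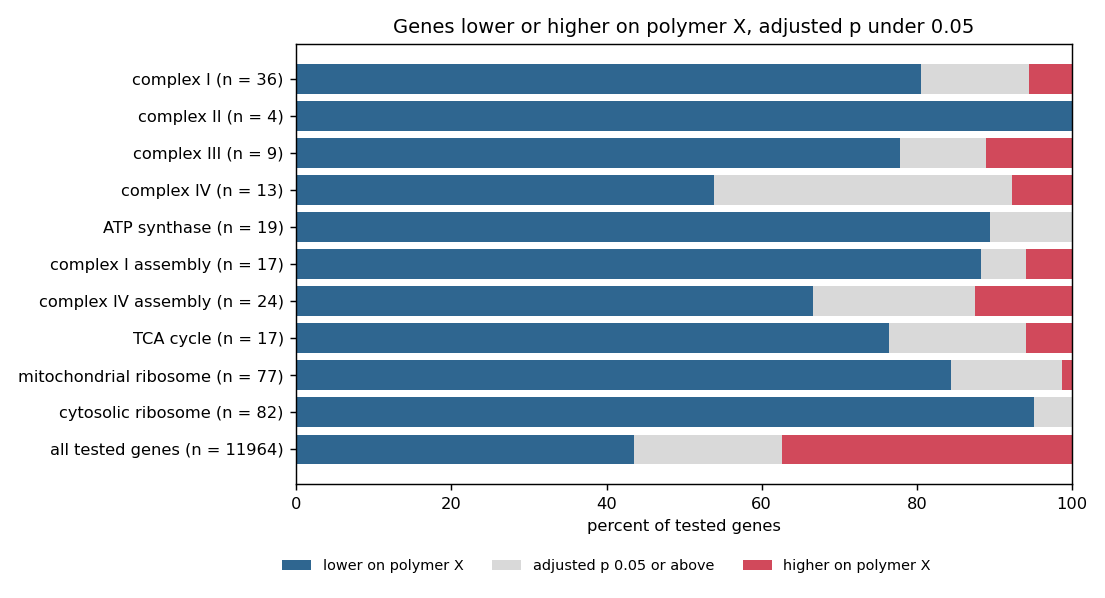
Percent of tested genes lower (blue) or higher (red) in the spheroids (adjusted p below 0.05), with the rest in grey, for each complex, related gene groups and all 11964 tested genes. Complex II, the ATP synthase and cytosolic ribosomal proteins have no red, and complex IV has 5 of 13 in grey.

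The ribosomal protein genes are given beside the chain as other large families of short transcripts. Of 77 tested MRPL and MRPS genes, 65 were lower (84.4%), with a median of -0.73. For 82 cytosolic RPL and RPS genes, 78 were lower (95.1%), with a median of -0.70. The share of all tested genes was 43.6%, with a median of -0.06. Complex I lay at -0.40 and complex IV at -0.22. These medians are descriptions, and the differences between the groups were not tested.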

How the data were processed

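The data were 4 RNA-seq libraries of SKOV3 cells, 2 on TCP and 2 on polymer X. The authors deposited FPKM values per RefSeq transcript of hg19, made per the file header with HOMER from tags on exons of both strands and rounded to 3 decimals. The submitters' processing notes also name STAR 2.4.0 and DESeq. Strand was not used, so overlapping genes share tags. Shared reads of near-identical copies were handled in a way not given in the sources used here.

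Each symbol was represented by its transcript of highest mean value. Values were tested as log2(FPKM + 1), for genes that reached 1 FPKM in 2 or more libraries, by limma 3.58.1 under R 4.3.3 (mean-variance trend, no block), with Benjamini-Hochberg adjustment over all 11964 genes and a threshold of 0.05. Isoform ratios were compared with an exact permutation test in scipy 1.17.1. Tags were recovered from the steps of the low values, and 100.0% of those used lay within 0.1 of a whole number. The fit was also run on simulated data, in which no replicate gap by transcript length was put. That run therefore does not cover the gap described above. Alternatives were scaling to a common median, quantile normalization, a pseudocount of 0.1, the replicate block, no filter, a filter on mean FPKM (5 or more), summed or longest transcripts, removal of the length trend, no variance trend, and each library left out.

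The members and lists were chosen with earlier results of these data known. Named in full were up to 3 members per direction with an adjusted p under 0.05, by size of change, in complexes I, III and IV, all of complex II, CYC1, CYCS and the isoform pairs. From the lists, PPARGC1A, PPARGC1B, PPRC1, NRF1, GABPA, ESRRA, TFAM, LONP1, COX7A2L, HIGD1A, NDUFAB1, PDK1, BNIP3 and up to 3 further genes by size of change were named. Other genes named were chosen after their values were seen. The single values of 1 member are not reported here. RefSeq sequences are on GRCh38.p14, and no coordinates were moved between builds. Plots were drawn with matplotlib 3.10.9.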

Additional observations from a re-analysis of the deposited data

How the results depend on the processing

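The direction of the fall held for the members as a whole and for complexes I, II and III under all alternatives, but not for complex IV. Quantile normalization gave 31 members lower and 13 higher, with 2 and 0 at least 2-fold. It gave medians of -0.15 for all members and -0.13, -0.40, -0.26 and 0.06 for complexes I to IV, and isoform ratio differences of -0.93 for COX7A1 to COX7A2 and 0.39 for NDUFA4L2 to NDUFA4. It turned COX6A1 (0.12), COX6B1 (0.06) and NDUFA4L2 (-0.03). With the length trend removed, 13 members were higher and 3 lower at least 2-fold, the medians were -0.21 for all members and -0.18, -0.56 and 0.11 for complexes I, II and IV, and COX6A1 (0.11), COX6B1 (0.04) and COX7B2 (0.18) changed sign. With the filter at a mean of 5 FPKM, which tests fewer genes, 1 member was higher and 0 at least 2-fold, and 47 were lower. Over all genes tested there, 2498 were higher, 702 of them at least 2-fold, and 4278 were lower, 960 of them at least 2-fold. The median change was -0.42 for the members and -0.20 for all genes tested there, so the background also lay lower. A pseudocount of 0.1 gave 2 members at least 2-fold higher and 1.83 for the ratio of NDUFA4L2 to NDUFA4. Scaling to a common median gave -0.60 for complex II. The cause was not tested.

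Each fit without 1 library assumes that the lone library of a group varies like the other group. Over these fits 36 to 49 members were lower and 3 to 9 higher, with 3 to 6 lower and 1 to 2 higher at least 2-fold. The 9 higher and 3 at least 2-fold lower came without TCP replicate 1. The medians ranged from -0.52 to -0.34 for all members, -0.49 to -0.34 for complex I, -0.66 to -0.61 for complex II, -0.62 to -0.34 for complex III and -0.32 to -0.11 for complex IV. The isoform ratio differences ranged from -0.62 to -0.05 for COX7A1 and from 0.88 to 1.31 for NDUFA4L2. COX7A2 ranged from -0.13 to 0.20 and COX7B2 from -0.35 to 0.03. With the replicate number as a block, the 48 lower and 4 higher members kept their calls. Deviations of same-numbered libraries correlated at 0.0927, so the numbers were not taken as pairs. Depth limits COX4I2, COX8C, COX6A2 and UQCRHL.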

Other observations

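Genes of the TCA cycle and of the mitochondrial membranes were mostly lower on polymer X as well. Of 17 tested genes of the TCA cycle and pyruvate dehydrogenase, 13 were lower (76.5%, against 43.6% of all tested genes) and 1 was higher. Their median log2 fold change was -0.65. FH, fumarase, had 31.4 FPKM in both TCP libraries and 11.8 and 9.47 on polymer X (-1.48), and CS, citrate synthase, had 84.0 and 86.5 against 36.3 and 32.6 (-1.29). OGDH, of the oxoglutarate dehydrogenase complex, was the gene that rose (0.30, adjusted p = 0.00211 from limma). Of 14 tested genes of the mitochondrial membranes, 12 were lower (85.7%, against 43.6% of all tested genes). Of these, 6 were lower at least 2-fold (42.9% of the 14, against 9.45% of all tested genes). TOMM40 and TOMM22, of the import pore of the outer membrane, fell by 1.80 and 1.58 on the log2 scale, and the ADP/ATP carrier SLC25A5 by 1.45. TOMM20, of the same pore, did not pass the test (log2 fold change -0.004, adjusted p = 0.948).

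Around ubiquinone, 10 of 18 tested genes were lower (55.6%) and 3 higher (16.7%), where 43.6% and 37.4% of all tested genes were. PDSS1, COQ3 and COQ2, of ubiquinone synthesis, fell by 1.17, 1.16 and 1.10 on the log2 scale. ETFA and ETFB, which encode the 2 chains of the electron transfer flavoprotein, had opposite signs, with ETFA at -1.04 and ETFB at 0.21 (adjusted p = 0.014 from limma). SQOR, a sulfide dehydrogenase that feeds ubiquinone, rose by 0.37.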
